A study of Mus musculus with 12 samples.

Results

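The genes described here are 46 listed genes of thiol and NADPH metabolism: glutathione, thioredoxin and peroxiredoxin, superoxide removal, NADPH formation with the pentose phosphate pathway, their regulators, and 4 heme and quinone genes. They were taken by name from a list that was drawn up with earlier results of these data known, out of 55450 genes in each deposited table. All 46 were found by symbol, and all 46 passed the filter on low counts that left 13636 genes to test. RNA had been sequenced from pmel-1 mouse CD8 T cells, which carry a transgenic receptor against the melanoma antigen gp100. Every group carried the wildtype Ucp2 gene, and every group was activated through the receptor and then kept in IL-2 at 10 ng/ml for 4 days. The 4 groups of 3 libraries were vehicle (culture media), genipin, NAC, and genipin+NAC. Genipin is a plant iridoid used as an inhibitor of the mitochondrial carrier Ucp2, and NAC (N-acetylcysteine) is a thiol that cells can convert to cysteine. The labels name peptide or antibodies to CD3 and CD28 as activation without saying which was used here. They list the same peptide concentration for every library, but give neither the doses of genipin and NAC nor the origin of the replicates. The p-values therefore measure the spread between these libraries, which may be technical.

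Glutathione is a tripeptide made from glutamate, cysteine and glycine. Cystine imported by Slc7a11 supplies the cysteine, Gclc and Gclm join it to glutamate, and Gss adds glycine. Peroxidases and glutaredoxins oxidise glutathione, and Gsr reduces it again with NADPH. The thioredoxin branch runs beside it: peroxiredoxins reduce peroxides, thioredoxin reduces the peroxiredoxins, and thioredoxin reductase reduces thioredoxin, again with NADPH. The transcription factor encoded by Nfe2l2 (NRF2) is held in check by Keap1 and drives many of these genes. Activated T cells take up cystine and make glutathione as they grow.

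The libraries held 20838894 to 31098648 expected counts each, of which the 46 genes took 0.473% to 0.623%. In the genipin+NAC group, replicate 1 stood apart: its counts differed from replicates 2 and 3 with a chi-square per degree of freedom of 7.23 and 8.29, while replicates 2 and 3 gave 2.09 and pairs in the other groups 2.23 to 3.00. Counts of genes are therefore also given without that library. All 10 CD8 T cell markers were expressed. Summed markers of these and of other cells moved with the groups, in CPM (counts relative to the scaled library total). The CD8 T cell list summed to 5030 to 5150 with vehicle, 5460 to 5590 with genipin, 5190 to 5220 with NAC and 6330 to 6540 with both. In that list Cd8a averaged 470.5, 392.8, 817.1 and 671.8 in the same order. The NK cell list, led by Gzma, which CD8 effector cells also express, summed to 1050 to 1090 with vehicle, 1840 to 1880 with genipin, 174 to 179 with NAC and 340 to 364 with both. The B cell list, led by Ighm, went from 42.7 to 44.2 with vehicle up to 192 to 205 with NAC, and the monocyte and macrophage list, led by Cd68, from 18.5 to 19.4 with genipin up to 106 to 116 with both. Of these lists 6 of 7 NK cell, 3 of 8 B cell and 3 of 8 monocyte and macrophage genes passed the filter on low counts. Some defining genes were near 0, with Cd79a, Ms4a1 and Pax5 at most 0.1985 CPM as a group mean and Csf1r, Lyz2 and Adgre1 at most 0.1956. Others were above that level, with group means that differed: Cd79b averaged 1.31 CPM with genipin, 2.65 with vehicle and 9.79 with NAC, Itgam 4.65 with genipin and 39.7 with both, and Cd14 0.570 with NAC and 3.13 with genipin. The neutrophil and mast cell list, led by Kit, summed to 28.1 to 31.3 with vehicle, 63 to 63.9 with genipin, 58.3 to 60.2 with NAC and 252 to 256 with both (3 of 9 genes passed the filter, with S100a8 and Elane at 0 in all libraries). In that list the mast cell protease Cpa3 averaged 4.05 CPM with NAC, 7.48 with vehicle, 13.6 with genipin and 16.1 with both, and the basophil protease Mcpt8 averaged 0.391, 6.85, 15.8 and 1.33 in the same order. The dendritic cell list (3 of 7 passed, Siglech and Cd209a at 0 in all libraries) went from 9.9 to 11.4 with NAC up to 29.7 to 32.8 with both, and the CD4 T cell list (2 of 4 passed) from 38.6 to 42.2 with genipin up to 65.2 to 69.8 with NAC. The CD4 T cell list was led by Zbtb7b. Cd4 itself averaged 0.357 CPM with genipin, 1.25 with vehicle, 2.65 with both and 5.11 with NAC. The NK cell gene Ncr1 averaged 2.10 CPM with genipin and at most 0.147 in the other groups. The part of these markers in the results was not tested. These are bulk samples, in which fewer cells of a type and less RNA per cell cannot be told apart.

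What genipin changed without NAC was read from genipin against vehicle. Genipin lowered most of these genes and raised a smaller set that holds the thioredoxin reductase Txnrd1, the peroxiredoxin Prdx1, the glutathione reductase Gsr and both NADPH-forming enzymes of the oxidative pentose phosphate pathway. Tested with edgeR's quasi-likelihood F test and adjusted by Benjamini-Hochberg over all 13636 genes, 27 of 46 fell, 9 rose and 10 did not pass (adjusted p under 0.05). In all, 78.3% of the 46 were called, and of all genes tested 61% were called, 31% lower and 29.9% higher. The median log2 fold change was -0.16 over the 46 genes and -0.01 over all genes tested. The genes that rose were Nfe2l2, Gsr, Txnrd1, Prdx1, Srxn1, Msra, Cat, G6pdx and Pgd.

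What NAC changed alone was read from NAC against vehicle. NAC lowered all 5 NADPH genes, Prdx1, Prdx2, Prdx4 and the glutaredoxin Glrx, and raised Txnip, Prdx6, Sod1, Sod2 and Nfe2l2. Here 19 of 46 fell and 11 rose, so that 65.2% were called against 59.7% of all genes (30% lower, 29.6% higher). The medians were -0.06 over the 46 and -0.01 over all genes. This split depended on scaling: without normalization factors the median of all genes moved by 0.12, and over all genes 5615 were called higher and 2700 lower, in place of 4041 and 4093.

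**Figure D1:**
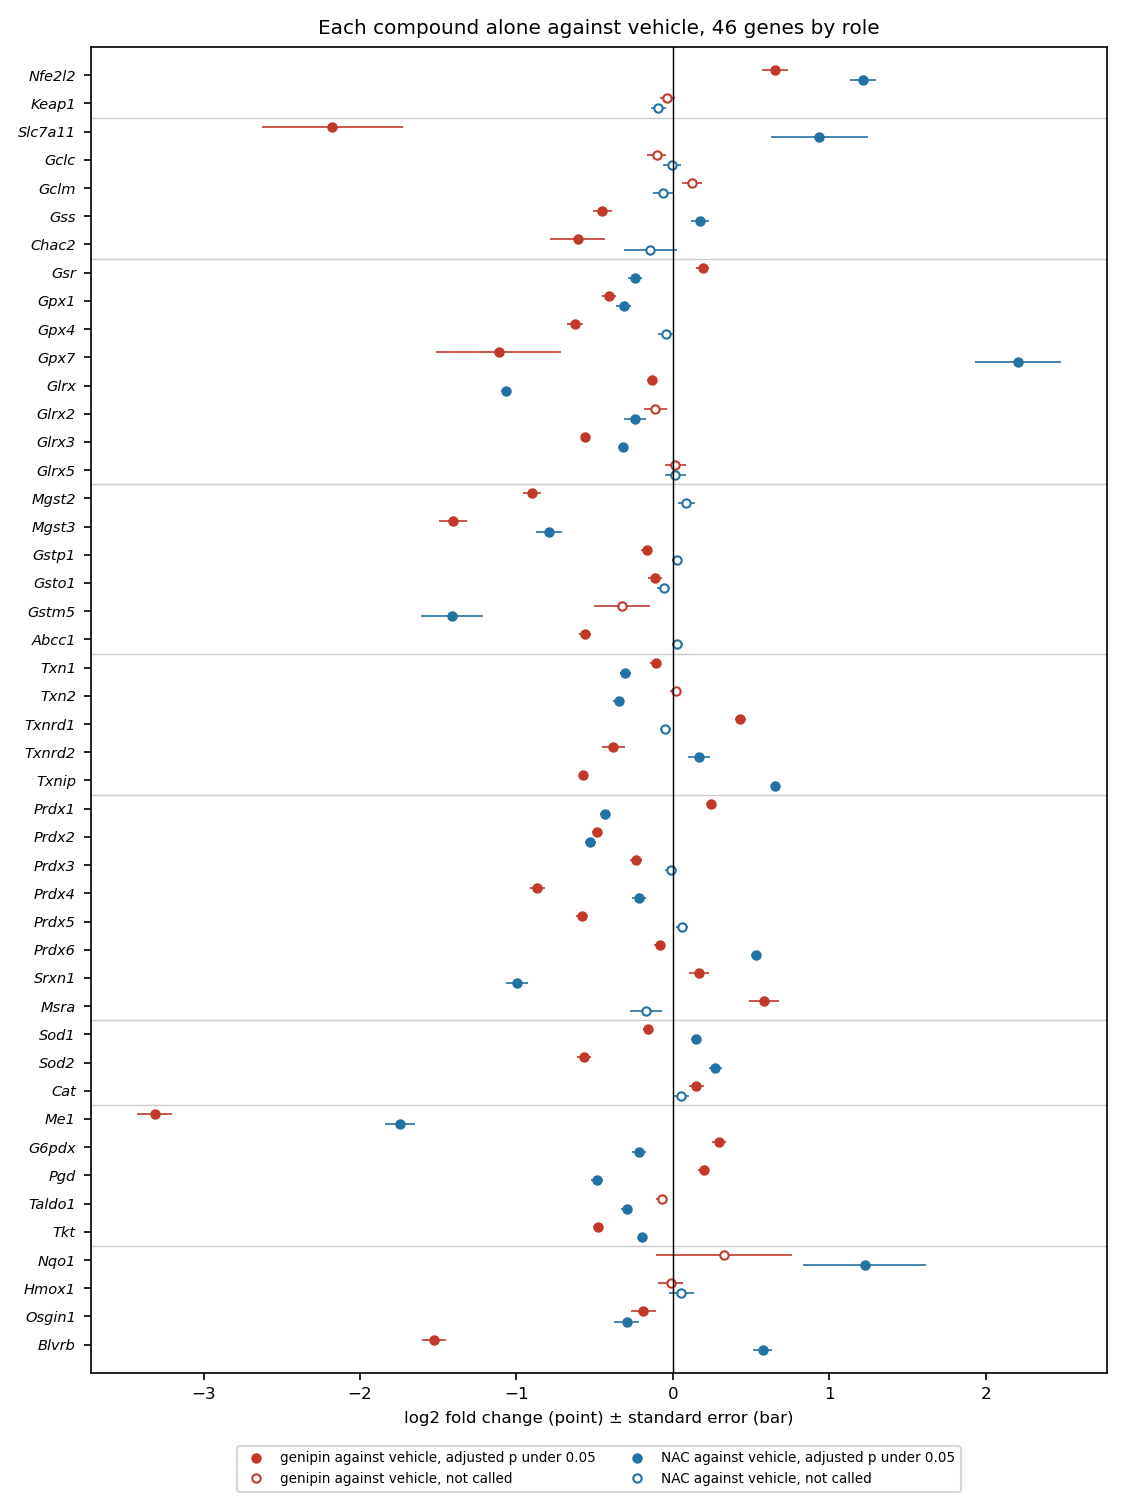
Log2 fold changes (points) with standard errors (bars) of the 46 genes, ordered by role with a grey line between roles, for genipin against vehicle (red) and NAC against vehicle (blue). Filled points passed an adjusted p of 0.05, and Me1 with genipin (-3.31) and Gpx7 with NAC (2.21) lie at the ends of the axis.

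Adding NAC to genipin was read from genipin+NAC against genipin, in which 22 genes rose, 15 fell and 80.4% were called, against 69.3% of all genes (35% higher, 34.3% lower). Txnip, Me1, Blvrb, Prdx5 and Gpx4 were among those that rose, and Txnrd1, Prdx1, G6pdx and Pgd among those that fell. The medians were 0.15 over the 46 and 0.01 over all genes. Without genipin+NAC replicate 1, 24 rose and 14 fell. Against vehicle, genipin+NAC left 10 genes higher and 21 lower (67.4% called, against 57.4% of all genes, 28.5% higher and 28.9% lower), and 11 and 21 without that replicate.

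Genipin in the presence of NAC was read from genipin+NAC against NAC. Here 12 genes rose and 15 fell (58.7% called, against 53.1% of all genes, 26.6% higher and 26.5% lower), with a median of 0.00 over the 46 and 0.01 over all genes. Without genipin+NAC replicate 1, 16 rose and 13 fell. Without normalization factors, 2650 of all genes were called higher and 4733 lower, in place of 3632 and 3607. The 2 genipin comparisons share no library. They had 21 called genes in common, 58.3% of the 36 called without NAC and 77.8% of the 27 called with it. Of these 21, 11 had the same direction in both and 10 the opposite one. In genipin against vehicle, the calls of Gpx7, Prdx6, Srxn1 and Osgin1 were lost in some other fits. In genipin+NAC against NAC, so were those of Slc7a11, Gpx7, Glrx3, Mgst2, Abcc1, Txnrd2 and Blvrb. The latter call was lost for Txnrd2 without any 1 genipin+NAC replicate, and for Abcc1 without any 1 NAC replicate. Over all genes tested, 5066 were called in both (60.9% and 70% of those called in each), and 63.5% of these had the same direction. Txnip, Me1, Blvrb, Glrx, Mgst3, Prdx2, Prdx5 and Osgin1 fell with genipin alone and rose with genipin in the presence of NAC, while Nfe2l2 and Txnrd1 did the reverse.

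The interaction, which is the genipin difference with NAC minus the genipin difference without NAC, tests that change itself. It was called for 32 of 46 genes (69.6%), with 25 higher and 7 lower, against 51.4% of all genes (27.4% higher, 24% lower). The median was 0.25 over the 46 and 0.03 over all genes. Without genipin+NAC replicate 1 the counts were again 25 and 7. Without normalization factors the median of all genes moved by -0.14, and 2618 of all genes were called higher and 4806 lower, in place of 3733 and 3275.

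**Figure D2:**
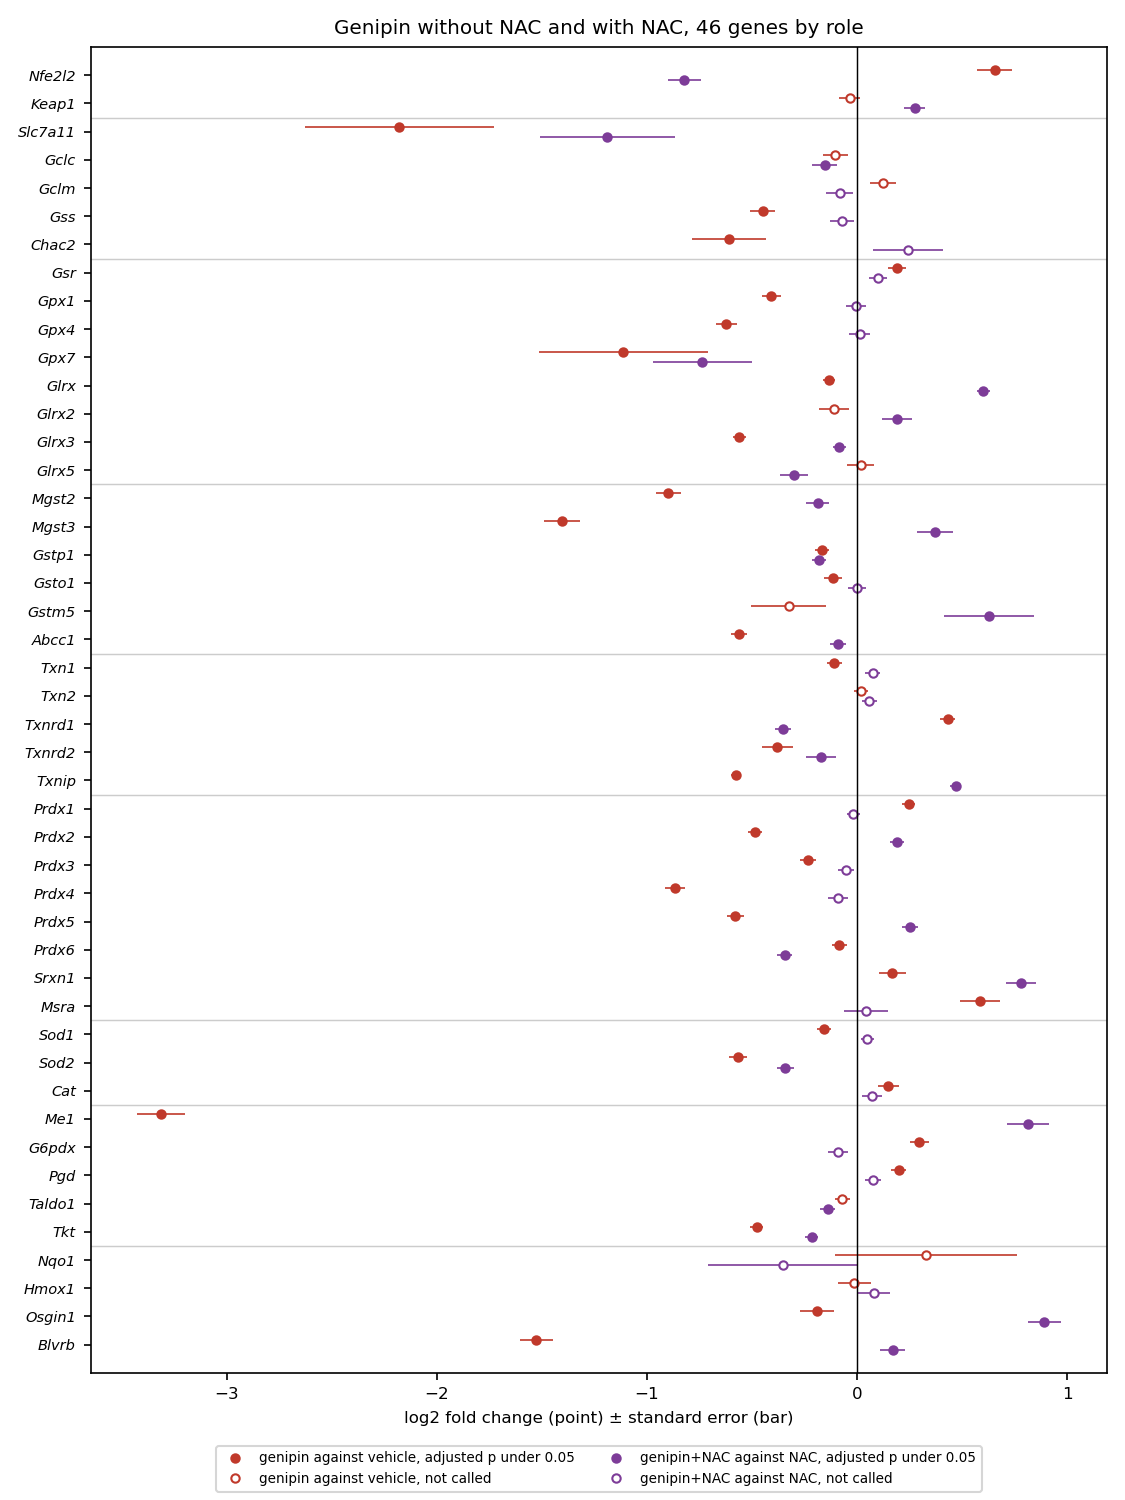
Log2 fold changes (points) with standard errors (bars) of the 46 genes by role, for genipin against vehicle (red) and genipin+NAC against NAC (purple). Filled points passed an adjusted p of 0.05, and Me1, Blvrb, Txnip and Prdx5 lie left of zero without NAC and right of it with NAC. The call of Blvrb with NAC was lost in several other fits.

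Levels between genes were compared in the deposited TPM, which are scaled by transcript length. With vehicle the most abundant of the 46 were Txnip (mean 469 TPM), Sod1 (432), Tkt (383), Txn1 (376), Gpx4 (360.4), Gpx1 (344) and Glrx (305). At the other end were Gpx7 (0.643 TPM), Nqo1 (0.323) and Slc7a11 (0.253), whose values rest on few counts. Genipin gave the lowest mean CPM of the 4 groups for 24 of the 46 genes, NAC for 12, genipin+NAC for 7 and vehicle for 3, while over all genes tested the shares were 33.9%, 27.3%, 21.1% and 17.7%. The highest mean was with vehicle for 16 of the 46, with genipin and with NAC for 11 each, and with both for 8 (19%, 32.6%, 26.3% and 22% of all genes).

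Promoter windows of RefSeq (GRCm38.p6, 250 bases before to 50 after the start site) were given for 40 of the 46 genes. A few are shown because the listed genes that rose with genipin and those that fell held one short motif in different counts. The core of the antioxidant response element, searched as TGACNNNGC on both strands with N any base, was in 12.4% of all 32851 windows and in 10 of 52 windows of these genes (19.2%). The 10 genes with a match were G6pdx, Gclm, Gstm5, Me1, Nfe2l2, Pgd, Prdx1, Sod1, Srxn1 and Txnrd1. The following stretches run 5′ to 3′ on the strand of the gene, and capitals mark the match, which begins with GC where it lies on the opposite strand.
Prdx1 (chr4:116685441-116685499, plus strand): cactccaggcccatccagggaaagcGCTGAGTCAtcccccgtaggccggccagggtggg
Txnrd1 (chr10:82859089-82859147, plus strand): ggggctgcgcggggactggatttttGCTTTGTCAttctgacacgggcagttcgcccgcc
G6pdx (chrX:74428904-74428962, minus strand): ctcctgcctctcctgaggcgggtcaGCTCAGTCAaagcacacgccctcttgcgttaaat
Gclm (chr3:122245398-122245456, plus strand): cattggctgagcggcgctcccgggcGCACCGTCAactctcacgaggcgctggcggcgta
Nfe2l2 (chr2:75704870-75704913, minus strand): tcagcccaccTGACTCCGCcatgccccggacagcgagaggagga
Sod1 (chr16:90220681-90220739, plus strand): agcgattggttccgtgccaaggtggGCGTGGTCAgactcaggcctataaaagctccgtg

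The matched core was TGACTCAGC in both Prdx1 and Me1, TGACCTAGC in Srxn1 and TGACATTGC in Pgd. Positions are counted from the start site of the RefSeq window that holds the match, whose first base is 0, and this start can lie inside the gene as annotated. The match began 133 bases before that start in Prdx1, 92 in Txnrd1 and 6 in Me1, and 28 bases after it in Srxn1. In Pgd it began 3 bases after the start of its window, at chr4:149166071-149166079, within the annotated gene (149149991 to 149166771). The matches in Txnrd1, G6pdx, Me1 and Srxn1 also lie inside the gene as annotated. Txnrd1, Pgd and Me1 have more than 1 window, and 1 window of each held the match. With genipin, 6 of the 10 genes with a match rose and 2 fell, and of the 30 genes without a match 1 rose and 23 fell. Over all genes tested that have a window, 32.1% of those with a match and 31.5% of those without rose. The shares that fell were 32.9% and 32.2%. Genes without a window are left out of these counts. Of those, Gsr and Msra rose with genipin, Abcc1 and Prdx6 fell, and Gclc and Hmox1 were not called. In genipin+NAC against genipin, 2 of the 10 rose and 8 fell, and of the 30 without a match 18 rose and 5 fell. Over all genes the share that rose was 35.9% both with and without a match, and 37.2% and 36.1% fell. The 2 genes with a match that fell with genipin, and the 2 that rose in genipin+NAC against genipin, were Me1 and Sod1. Among the 8, the fall of Gstm5 (-0.46, adjusted p = 0.0375) was lost with DESeq2, without the filter, with a replicate block and with effective length offsets. It was also lost without genipin replicate 1 or 3, or any 1 genipin+NAC replicate. Among the 6, the rise of Srxn1 was lost in fits given below. Without a match, the genipin calls of Cat, Gpx7, Gsto1, Osgin1 and Txn1 were also lost in fits without 1 library. In NAC against vehicle, 2 of the 10 genes with a match rose and 6 fell. Of the 30 without a match, 8 rose and 12 fell with NAC. Over all genes with a match, 31.1% rose and 33.5% fell with NAC, and without a match 31.2% rose and 31.2% fell. These counts are a description of listed genes, and a match in the sequence does not show binding.

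**Figure D3:**
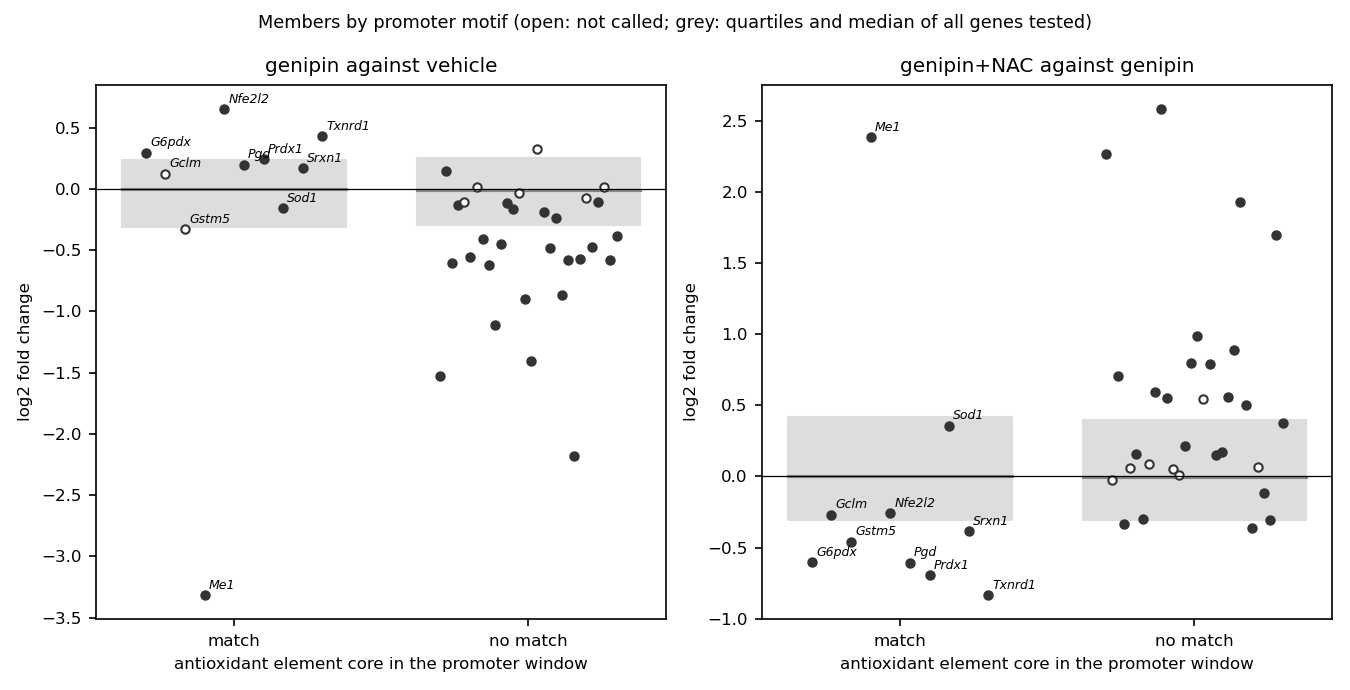
Log2 fold changes of the 40 genes with a promoter window, split by a match to the antioxidant response element core, for genipin against vehicle (left) and genipin+NAC against genipin (right). Open points were not called, grey boxes and lines give the quartiles and the median of all genes tested, and 6 of the 10 genes with a match rose with genipin while 8 of them fell when NAC was added. The calls of Srxn1 (left) and Gstm5 (right) were lost in several fits that left out 1 library.

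Slc7a11 was the only one of the 40 with the amino acid response element core TGATGNAA, which 4.0% of all windows hold. Its window has 2 matches on opposite strands, 66 and 47 bases before the start site, shown in capitals because this cystine carrier had the second-largest fall with genipin.
Slc7a11 (chr3:50443633-50443699, minus strand): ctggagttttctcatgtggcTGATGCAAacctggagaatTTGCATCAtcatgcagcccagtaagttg
The hypoxia response element core ACGTG was in 19.6% of all windows and in 11 of the 52 windows of these genes (21.2%). Of the 11 genes, 1 rose with genipin and 7 fell, and of the 29 without that core 6 rose and 18 fell. Over all genes 29.9% rose and 35.6% fell with the core, and 32.3% and 30.9% without it.

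Of the regulators, Nfe2l2 (chromosome 2, 75675513 to 75704641, GRCm38) had 8.32, 7.09 and 7.61 CPM with vehicle, 11.8, 12.9 and 11.6 with genipin, 18.3, 18.5 and 16.9 with NAC, and 10.6, 9.99 and 9.74 with both. The vehicle libraries were the lowest and the NAC libraries the highest, and no 2 groups overlapped. Against vehicle it changed by 0.65 ± 0.09 (log2 fold change ± SE, as for all such pairs here) with genipin (adjusted p = 9.36e-07) and 1.22 ± 0.08 with NAC (4.06e-11). In the presence of NAC genipin lowered it (-0.82 ± 0.08), which gave an interaction of -1.48 ± 0.12 (adjusted p = 6.26e-10). Its inhibitor Keap1 was at -0.04 ± 0.05 with genipin and -0.09 ± 0.05 with NAC, neither passing the test, and rose with genipin in the presence of NAC (0.27 ± 0.05). Transcript levels do not measure NRF2 protein, which is controlled largely by its degradation.

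In the counts by role below, the shares of all genes tested are those given above for each comparison: 31% fell and 29.9% rose with genipin, and 30% fell and 29.6% rose with NAC. The 5 genes of glutathione synthesis and turnover are Slc7a11, Gclc, Gclm and Gss, which supply or make glutathione, and Chac2, which degrades it. Slc7a11, Gss and Chac2 fell with genipin and none rose, while Slc7a11 and Gss rose with NAC and none fell. Lists of so few genes are described only by these counts. Slc7a11, the cystine carrier, had 14, 13 and 29 counts with vehicle, 3, 3 and 6 with genipin, 31, 38 and 36 with NAC, and 15, 9 and 24 with both. The genipin libraries were lowest throughout, and vehicle and genipin+NAC overlapped. The log2 fold change was -2.18 ± 0.45 with genipin (adjusted p = 0.000268) and 0.94 ± 0.31 with NAC (0.0135), and adding NAC to genipin raised it by 1.93 ± 0.46. The rise with NAC was lost without vehicle replicate 1 (0.81, adjusted p = 0.0548), without vehicle replicate 2 (0.77, 0.0634) and with effective length offsets (0.62, 0.297). The offsets also ended the call in genipin+NAC against NAC (-1.25, adjusted p = 0.0508).

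The glutamate-cysteine ligase subunits moved little. Gclc, the catalytic subunit, was at -0.10 ± 0.06 with genipin and -0.00 ± 0.06 with NAC, and the modifier subunit Gclm at 0.12 ± 0.06 and -0.06 ± 0.06, with none of the 4 differences passing the test. Gclm fell when NAC was added to genipin (-0.27 ± 0.06, adjusted p = 0.000763). Gss, the glutathione synthetase, had 32.6, 31.6 and 32.2 CPM with vehicle, 24.1, 24.0 and 22.6 with genipin, 37.9, 36.1 and 34.8 with NAC, and 32.6, 34.1 and 36.6 with both. It was lowest with genipin, without overlap (-0.45 ± 0.06, adjusted p = 1e-06), and adding NAC to genipin raised it by 0.55 ± 0.06. Its rise with NAC alone (0.17 ± 0.06) was lost without NAC replicate 1 (0.13, adjusted p = 0.0766). Gss overlaps Acss2 and Chac2 overlaps Asb3 on the other strand, and whether strand was used in counting is not given in the sources used here. The fall of Chac2 with genipin was -0.61 ± 0.18.

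Of the 8 genes that use or recycle glutathione, Gsr rose with genipin, 5 fell (Gpx1, Gpx4, Gpx7, Glrx and Glrx3; 31% of all genes fell) and Glrx2 and Glrx5 did not pass. Gsr, the glutathione reductase, rose by 0.19 ± 0.04 with genipin and fell by 0.24 with NAC (SE 0.04). Gpx4, the peroxidase that reduces lipid hydroperoxides in membranes, had 235, 249 and 248 CPM with vehicle, 154, 158 and 164 with genipin, 242, 237 and 230.4 with NAC, and 210.2, 246 and 258 with both. Genipin alone lay below the other 3 groups, which overlapped. Its log2 fold change was -0.62 ± 0.05 with genipin (adjusted p = 9.47e-10), -0.05 ± 0.05 with NAC (0.464) and 0.59 ± 0.05 when NAC was added to genipin (1.34e-09). In genipin+NAC against NAC it was 0.01 ± 0.05 (not called), and without genipin+NAC replicate 1, the lowest of that group, 0.09 (called). Gpx1, the abundant soluble peroxidase, fell against vehicle with genipin (-0.41 ± 0.05) and with NAC (-0.32 ± 0.05). Adding NAC to genipin left Gpx1 at 0.09 ± 0.05 (not called), and at 0.15 (called) without genipin+NAC replicate 1.

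Glrx, the soluble glutaredoxin that removes glutathione from proteins, had 312, 316 and 329 CPM with vehicle, 291, 283 and 297 with genipin, 154, 150.2 and 152 with NAC, and 227, 234 and 230.1 with both. The 4 groups did not overlap, and NAC alone was the lowest. NAC lowered it by 1.07 on the log2 scale (SE 0.03, adjusted p = 2.36e-17) without genipin and by 0.33 with it, and the interaction was 0.74 ± 0.04. Gpx7, a peroxidase of the endoplasmic reticulum, had 17, 13 and 18 counts with vehicle, 10, 6 and 6 with genipin, 43, 83 and 96 with NAC, and 49, 43 and 43 with both. It was higher in every NAC library than in any library without NAC (2.21 ± 0.27 for NAC against vehicle, adjusted p = 5.42e-07). The fall of Gpx7 with genipin (-1.11 ± 0.40) was lost without vehicle replicate 1 (-1.02, adjusted p = 0.0612), genipin replicate 2 (-1.07, 0.0521) or genipin replicate 3 (-0.93, 0.0852). Its fall in genipin+NAC against NAC (-0.74 ± 0.23) was lost without genipin+NAC replicate 3 (-0.58) or NAC replicate 3 (-0.54).

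Genes of glutathione transfer and export fell with genipin in 5 of 6 cases (31% of all genes), and Gstm5 did not pass. With NAC 2 of the 6 fell (30% of all genes) and none rose. Mgst3, a microsomal transferase, had 21.6, 20.95 and 22.3 CPM with vehicle, 8.86, 7.32 and 8.21 with genipin, 13.2, 11.9 and 12.5 with NAC, and 14.2, 16.2 and 17.8 with both. All groups were below vehicle and genipin alone was the lowest, with no overlap. Mgst3 fell by 1.41 with genipin (SE 0.09, adjusted p = 9.36e-12) and by 0.79 with NAC, and its interaction was 1.78 ± 0.12 (6.61e-11). Mgst2, a related enzyme, fell with genipin (-0.90 ± 0.06) and rose when NAC was added to it (0.80 ± 0.06), as did Abcc1, which exports glutathione conjugates (-0.56 ± 0.04 and 0.50 ± 0.04). Gstp1, an abundant soluble transferase, fell less (-0.17 ± 0.03), and its near copy Gstp3 took 1370 counts on average beside 3530 for Gstp1, so reads could be split between them. Gsto1 fell by 0.11 with genipin (SE 0.04), a call lost without vehicle replicate 2, vehicle replicate 3, genipin replicate 1 or genipin replicate 2 (log2 fold changes of -0.09 to -0.11).

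Txnip, the thioredoxin-interacting protein that binds thioredoxin and limits glucose uptake, was the most abundant of the 46 with vehicle in TPM. It lies on chromosome 3, 96557957 to 96561883. Its values were 967, 973 and 973 CPM with vehicle, 639, 663 and 650.4 with genipin, 1541, 1522 and 1516 with NAC, and 2147, 2090 and 2095 with both. The groups were far apart and their order was genipin, vehicle, NAC, genipin+NAC. Genipin lowered it without NAC (-0.58 ± 0.03, adjusted p = 2.41e-14) and raised it with NAC (0.47 ± 0.03, 8.49e-13), an interaction of 1.05 ± 0.04 (4.57e-16). NAC raised it by 0.65 ± 0.03 alone and by 1.70 ± 0.03 on top of genipin.

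Txnrd1, the cytosolic thioredoxin reductase, moved the other way (chromosome 10, 82833951 to 82897712). It had 113, 103 and 110.4 CPM with vehicle, 147, 148 and 145 with genipin, 108, 102 and 106 with NAC, and 82.8, 84.9 and 79.6 with both. Genipin alone was highest and genipin+NAC lowest, and vehicle and NAC overlapped. The log2 fold change was 0.43 ± 0.04 with genipin (adjusted p = 1.56e-09), -0.35 ± 0.04 with genipin in the presence of NAC (8.46e-08) and -0.83 ± 0.04 when NAC was added to genipin (2.16e-14). Its mitochondrial counterpart Txnrd2 fell with genipin (-0.38 ± 0.07).

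Thioredoxin itself, Txn1, fell in all 3 treated groups against vehicle: genipin (-0.11 ± 0.04), NAC (-0.30 ± 0.04) and genipin+NAC (-0.23 ± 0.04). The genipin call was lost without vehicle replicate 3 (-0.08, adjusted p = 0.0794), without genipin replicate 3 (-0.09, 0.0654) and without normalization factors (-0.04, 0.278). The mitochondrial Txn2 was at 0.02 ± 0.04 with genipin (not called) and fell with NAC (-0.35 ± 0.04). Within each library, the ratio of Txnip to Txn1 in TPM was 1.29, 1.23 and 1.23 in the vehicle libraries, 0.837, 0.881 and 0.955 with genipin, 2.29, 2.44 and 2.35 with NAC, and 3.21, 3.09 and 3.15 with both. The ratio was above 1 in every library outside the genipin group and below 1 in all 3 genipin libraries.

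The 6 peroxiredoxins did not move as a block. With genipin, Prdx1 rose and the other 5 fell, though the call of Prdx6 was lost under several other settings. Of the 5 that have a promoter window, Prdx1 had a match to the antioxidant element core, which 12.4% of all windows hold. Over all genes 32.1% rose with a match and 31.5% without, and the part of the motif was not tested. Prdx1, an abundant cytosolic peroxiredoxin (chromosome 4, 116685544 to 116700822), had 304, 299 and 309 CPM with vehicle, 359.6, 363 and 358 with genipin, 218, 229 and 228 with NAC, and 232, 215 and 219.7 with both. Genipin alone was above vehicle, and both NAC groups were below it and overlapped each other. It changed by 0.25 ± 0.03 with genipin (adjusted p = 6.27e-07), -0.43 ± 0.03 with NAC (1.58e-10) and -0.70 ± 0.03 when NAC was added to genipin (2.51e-14). As a share of the summed TPM of Prdx1 to Prdx6, it was 27.4% to 29.1% with vehicle, 39.4% to 41.1% with genipin, 23.4% to 25.2% with NAC and 20.8% to 23.8% with both.

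Prdx5, found in mitochondria, peroxisomes and cytosol, had 181, 185 and 194 CPM with vehicle, 125, 120.2 and 129 with genipin, 199, 195 and 189 with NAC, and 218, 239 and 237 with both. Genipin alone was lowest, vehicle and NAC overlapped, and genipin+NAC was highest. Genipin lowered it without NAC (-0.58 ± 0.04, adjusted p = 4.67e-11) and raised it with NAC (0.25 ± 0.04, 1.08e-05). Prdx5 and Trmt112 overlap on opposite strands. Prdx4, of the endoplasmic reticulum, fell with genipin (-0.87 ± 0.05) and less with NAC (-0.22 ± 0.05), the latter not called without normalization factors (-0.10). The cytosolic Prdx2 fell with genipin (-0.49 ± 0.03) and with NAC (-0.53 ± 0.03), and it overlaps the highly expressed Junb on the other strand (9550 counts on average beside 4192).

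Prdx6, which also has phospholipase activity, rose with NAC by 0.53 ± 0.04 (124, 131 and 136 CPM with vehicle, 188, 188 and 189 with NAC). Its change with genipin (-0.09 ± 0.04, adjusted p = 0.0467) was lost in 5 fits that left out 1 library (-0.05 to -0.10): vehicle replicate 2 or 3, or genipin replicate 1, 2 or 3. It also lost its call with RLE size factors, DESeq2, limma-voom and no normalization factors, and was 0.05 with effective length offsets. The mitochondrial Prdx3 fell with genipin (-0.23 ± 0.04) and was at -0.01 ± 0.04 with NAC, where it became a rise of 0.11 without normalization factors.

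**Figure D4:**
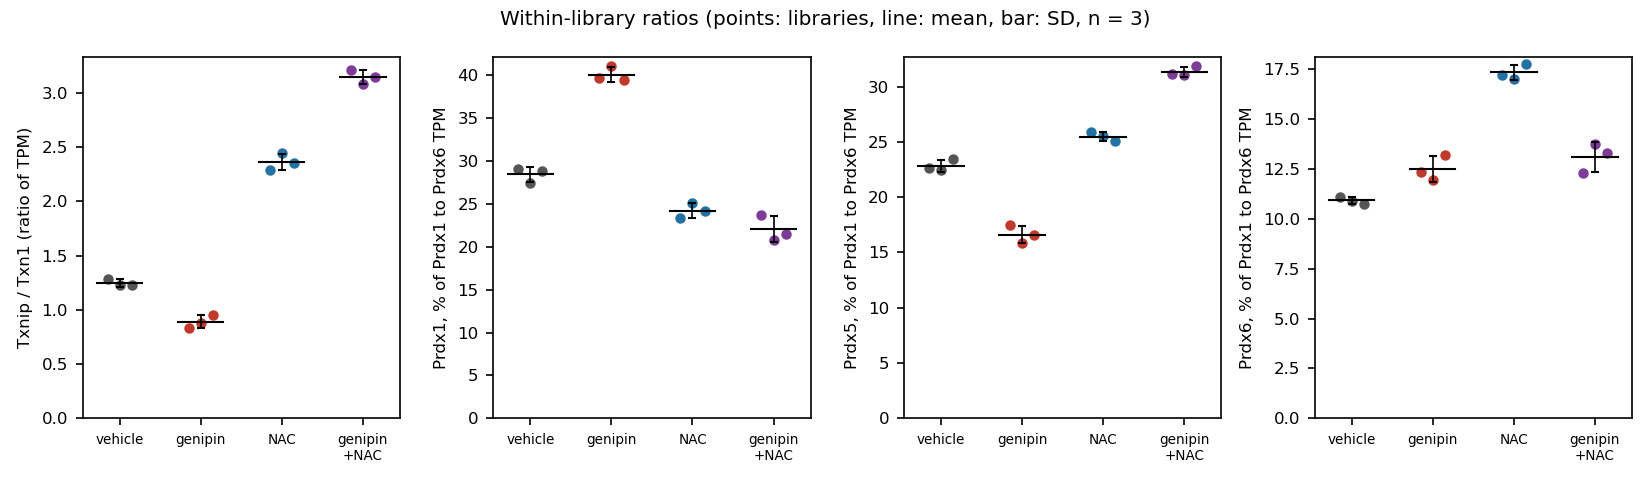
Within-library ratios of deposited TPM by group: Txnip over Txn1, and Prdx1, Prdx5 and Prdx6 as percent of the summed Prdx1 to Prdx6. Points are libraries, lines means and bars SD (n = 3), and the Prdx1 share is highest with genipin (39.4% to 41.1%) while the Txnip ratio is highest with genipin+NAC (3.09 to 3.21).

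Srxn1, the sulfiredoxin that restores over-oxidised peroxiredoxins, had 23.4, 24.96 and 23.8 CPM with vehicle, 26.5, 27.0 and 27.5 with genipin, 11.4, 12.3 and 12.4 with NAC, and 20.8, 18.7 and 22.3 with both. NAC alone stood far below the other groups, and no 2 groups overlapped. NAC lowered it by 1.00 without genipin (SE 0.07, adjusted p = 9.16e-11) and by 0.38 with genipin (SE 0.07, 2.02e-05). The small rise with genipin (0.17 ± 0.06, adjusted p = 0.0289) was lost without vehicle replicate 1 (0.15), vehicle replicate 3 (0.16), genipin replicate 2 (0.17) or genipin replicate 3 (0.15). In genipin+NAC against vehicle its fall (-0.22 ± 0.07) was lost without genipin+NAC replicate 2 (-0.16). Msra, which reduces methionine sulfoxide, rose with genipin (0.58 ± 0.10) and fell when NAC was added to it (-0.71 ± 0.10).

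The superoxide dismutases fell with genipin and rose with NAC. Sod2, the mitochondrial enzyme, had 60.1, 56.3 and 59.7 CPM with vehicle, 40.3, 38.5 and 39.8 with genipin, 71.8, 72.2 and 68.5 with NAC, and 55.3, 55.1 and 57.3 with both. Genipin was lowest and NAC highest, and vehicle and genipin+NAC overlapped. The log2 fold change was -0.57 ± 0.04 with genipin (adjusted p = 2.5e-10) and 0.27 ± 0.04 with NAC (7.13e-06), the latter being 0.02 and not called with effective length offsets (adjusted p = 0.784). The cytosolic Sod1, which overlaps Scaf4 on the other strand, changed by -0.16 ± 0.03 and 0.15 ± 0.03. Catalase, Cat, rose with genipin (0.15 ± 0.05), a call lost without vehicle replicate 2 (0.10) or genipin replicate 2 (0.12). Its rise in genipin+NAC against vehicle (0.12 ± 0.05) was lost without vehicle replicate 2 (0.07) or genipin+NAC replicate 2 (0.09).

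The NADPH genes fell with NAC in 5 of 5 cases (30% of all genes), and in genipin+NAC against vehicle in 5 of 5 (28.9% of all genes), while with genipin alone 2 rose, 2 fell and Taldo1 did not pass. Of the 5, Tkt and Taldo1 belong to the non-oxidative branch of the pentose phosphate pathway, which does not itself form NADPH. Me1, the cytosolic malic enzyme (chromosome 9, 86581371 to 86695953), had 19.6, 17.8 and 20.97 CPM with vehicle, 2.28, 1.65 and 1.90 with genipin, 5.66, 6.27 and 5.48 with NAC, and 10.6, 9.78 and 10.3 with both. Each compound alone lowered it below the level with both, and no 2 groups overlapped. Me1 had the largest interaction of the 46 genes (4.13 ± 0.16, adjusted p = 2.72e-15): genipin changed it by -3.31 ± 0.11 without NAC (5.94e-16) and 0.81 ± 0.10 with it (7.14e-07).

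G6pdx and Pgd, the dehydrogenases of the oxidative pentose phosphate pathway, were both highest with genipin. G6pdx had 51.7, 52.3 and 49.6 CPM with vehicle, 65.5, 60.4 and 62.5 with genipin, 44.2, 43.5 and 44.5 with NAC, and 39.6, 43.5 and 41.1 with both. Pgd had 111, 113 and 114 CPM with vehicle, 124, 128 and 135 with genipin, 81.6, 80.4 and 79.7 with NAC, and 81.4, 83.6 and 88.8 with both. Both genes were lower than vehicle in every NAC library. With genipin G6pdx rose by 0.30 ± 0.05 (adjusted p = 7.48e-06) and Pgd by 0.20 ± 0.04 (9.48e-05), and when NAC was added to genipin they fell by 0.60 and 0.61 (SE 0.05 and 0.04). The fall of G6pdx with NAC alone (-0.22 ± 0.05) was not called without normalization factors (-0.10), and G6pdx overlaps Ikbkg on the other strand. Of the enzymes of the non-oxidative branch, Tkt fell with genipin (-0.48 ± 0.03) and Taldo1 was at -0.07 ± 0.04 (not called), and both fell with NAC (-0.19 ± 0.03 and -0.29 ± 0.04).

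Of the heme and quinone genes, Blvrb, a biliverdin and flavin reductase (chromosome 7, 27447978 to 27466144), had 14.5, 14.5 and 14.0 CPM with vehicle, 4.72, 4.96 and 5.22 with genipin, 21.5, 21.3 and 21.1 with NAC, and 22.4, 24.7 and 24.7 with both. The groups did not overlap, and genipin alone was the lowest. It changed by -1.53 ± 0.08 with genipin (adjusted p = 4.11e-13), 0.57 ± 0.06 with NAC (9.32e-08) and 2.27 ± 0.07 when NAC was added to genipin (7.94e-17). The rise of Blvrb in genipin+NAC against NAC was lost with DESeq2 (0.16, adjusted p = 0.0861) and without the filter (0.17, 0.0671). Effective length offsets (0.16, 0.0648) and no normalization factors (0.09, 0.21) also ended that call. So did leaving out genipin+NAC replicate 2 or 3, or NAC replicate 3. Osgin1, a growth inhibitor induced by oxidative stress, had 36.7, 46.7 and 44.7 CPM with both compounds and 22.0 to 30.3 in the other 9 libraries, an interaction of 1.08 ± 0.11 (adjusted p = 4.62e-08). Its fall with genipin alone (-0.19 ± 0.08, adjusted p = 0.0448) was lost in 5 of the 6 fits without 1 library, all but the one without vehicle replicate 1 (-0.14 to -0.21). Hmox1, heme oxygenase 1, was the only one of the 46 genes not called in any of the 6 comparisons, with group means of 12.2 to 13.5 CPM and log2 fold changes of -0.01 ± 0.08 with genipin and 0.05 ± 0.08 with NAC. Nqo1, the quinone reductase often used as an NRF2 readout, had 6 to 26 counts per library. It rose with NAC (1.23 ± 0.39, adjusted p = 0.0109) and was at 0.33 ± 0.43 with genipin (0.535), too imprecise to show a change of that size.

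**Figure D5:**
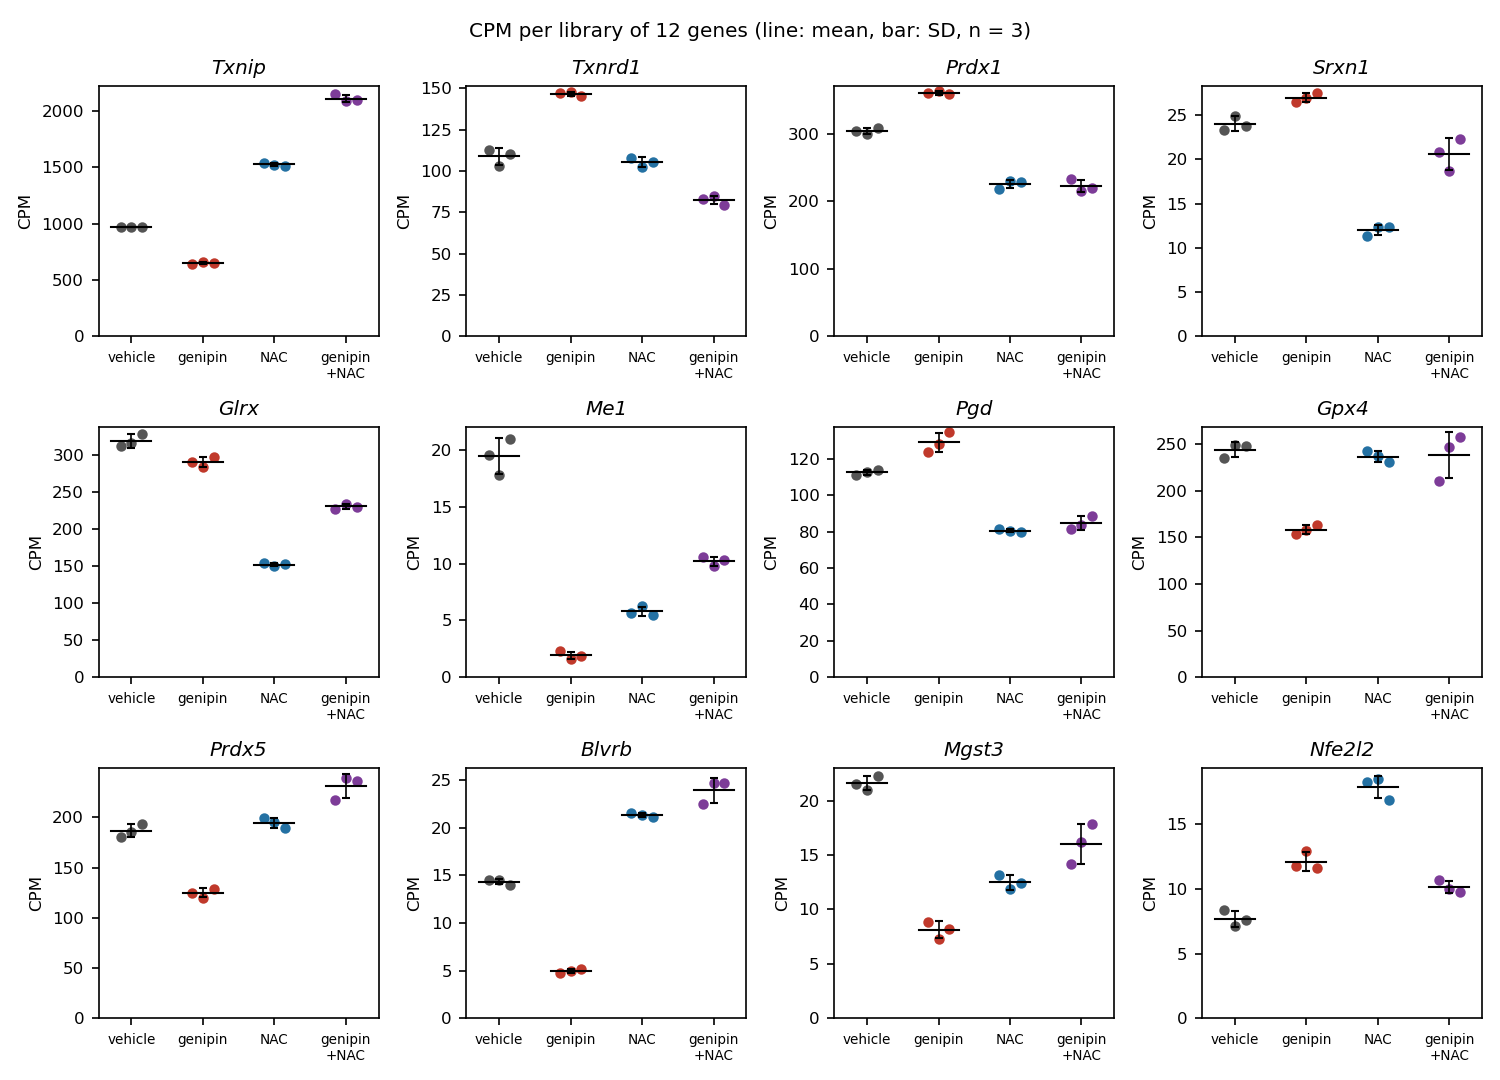
CPM of 12 of the 46 genes in every library (points), with group means (lines) and SD (bars, n = 3), each panel on its own linear axis from 0. Txnip runs from 639 with genipin to 2147 with genipin+NAC, while Txnrd1 and Prdx1 are highest with genipin alone.

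Other genes of the same pathways were counted in lists that were written with earlier results of these data known. Of 25 further glutathione genes, 13 fell and 4 rose with genipin (31% and 29.9% of all genes), and 14 rose and 5 fell when NAC was added to genipin (35% and 34.3% of all genes). With NAC alone 8 fell and 5 rose (30% and 29.6% of all genes). Among them, Chac1, which degrades glutathione, had 19.6, 20.2 and 18.1 CPM with vehicle, 2.59, 3.48 and 2.698 with genipin, and 13.9, 16.0 and 15.2 with genipin+NAC, and it rose by 2.37 ± 0.11 when NAC was added to genipin. Slc3a2, the partner chain of Slc7a11, rose with NAC (0.51 ± 0.03) and fell with genipin in the presence of NAC (-0.47 ± 0.03). Of 21 further NADPH genes, 12 fell and 4 rose with genipin (31% and 29.9% of all genes), and 12 fell and 2 rose with genipin in the presence of NAC (26.5% and 26.6% of all genes). With NAC alone 8 of the 21 fell and 7 rose (30% and 29.6% of all genes, list median -0.00), unlike the 5 NADPH genes above, which all fell. The isocitrate dehydrogenases Idh1 and Idh2, which form NADPH in the cytosol and in mitochondria, fell with genipin (-1.25 ± 0.08 and -1.06 ± 0.08), while H6pd, the hexose phosphate dehydrogenase of the endoplasmic reticulum, rose (0.64 ± 0.06). Idh2 rose with NAC (1.06 ± 0.07).

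Of 24 further genes of the thioredoxin fold and methionine sulfoxide repair, 11 fell and 4 rose with genipin (31% and 29.9% of all genes) and 10 rose and 7 fell with NAC (29.6% and 30% of all genes). Park7, a redox-sensitive chaperone, fell with genipin (-0.68 ± 0.03). Of 20 genes for NRF2 partners and other NRF2 targets, 7 rose and 7 fell with genipin, and 7 rose and 7 fell with NAC, counts that lie near the shares of all genes (29.9% higher and 31% lower with genipin, 29.6% and 30% with NAC). With genipin, Sqstm1, an autophagy receptor that binds Keap1, rose (0.68 ± 0.03) and the ferritin heavy chain Fth1 fell (-0.71 ± 0.04). The repressors Bach1 and Bach2, which compete with NRF2 at its sites, rose with NAC (0.81 ± 0.08 and 0.86 ± 0.07). Their means were above vehicle in the other treated groups too. Bach1 averaged 12.3 CPM with vehicle, 16.0 with genipin, 21.6 with NAC and 18.7 with both. Bach2 averaged 11.6, 15.85, 21.1 and 26.0 in the same order.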

How the data were processed

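RNA of 12 libraries, 4 groups of 3 taken from the labels, was sequenced as paired reads of 150 bases from a stranded kit with ribosomal RNA removed, per the labels' protocols. Per the submitters' processing notes, the tools were RSEM 1.3.1, STAR 2.7.0f, cutadapt 1.18 and bcl2fastq and the build was mm10, with no role or strand setting given. The authors deposited expected counts, TPM and effective lengths per gene, per the file headers. All 55450 IDs were found in GENCODE mouse release 21, which supplied coordinates.

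Expected counts were rounded, filtered with filterByExpr and scaled by TMM (0.961 to 1.05) in edgeR 4.0.16 under R 4.3.3. The negative binomial model had a mean for each group over all 12 libraries (8 residual degrees of freedom). Each of the 6 contrasts had a quasi-likelihood F test with Benjamini-Hochberg adjustment over 13636 genes. SE is the absolute log2 fold change over the square root of F. CPM use the scaled library sizes. DESeq2 1.42.0 and limma 3.58.1 served as alternatives, with others named in the closing section. The steps were tested on simulated data. A few items are not reported here. Figures used matplotlib 3.10.9.

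The 46 genes, the gene lists, the motifs and the tests were chosen with earlier results of these data known. All 46 genes were eligible for naming; of the further lists, up to 4 called genes per list and comparison with the largest change, a mean of at least 5 CPM and no overlap of groups.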

Additional observations from a re-analysis of the deposited data

Results flagged for a closer look

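For 32 of the 46 genes the genipin difference with NAC was not the same as that without NAC, by the interaction term of the model, and each is given here as the log2 difference between them. Among regulators and glutathione synthesis genes it was -1.48 for Nfe2l2, 0.31 for Keap1, 0.38 for Gss and 0.85 for Chac2. Among genes that use glutathione it was 0.40 for Gpx1, 0.63 for Gpx4, 0.74 for Glrx, 0.30 for Glrx2, 0.48 for Glrx3 and -0.32 for Glrx5. Among transferases and the exporter it was 0.71 for Mgst2, 1.78 for Mgst3, 0.96 for Gstm5 and 0.47 for Abcc1.

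In the thioredoxin group the difference was 0.19 for Txn1, -0.78 for Txnrd1 and 1.05 for Txnip. Peroxiredoxins and repair enzymes had -0.26 for Prdx1, 0.68 for Prdx2, 0.18 for Prdx3, 0.78 for Prdx4, 0.83 for Prdx5, -0.26 for Prdx6, 0.61 for Srxn1 and -0.54 for Msra. The remaining values were 0.21 for Sod1, 0.23 for Sod2, 4.13 for Me1, -0.39 for G6pdx, 0.26 for Tkt, 1.08 for Osgin1 and 1.70 for Blvrb. Of all genes tested 51.4% had a called interaction. Without normalization factors the calls of Txn1 (0.04), Prdx3 (0.04), Sod1 (0.06), Sod2 (0.08) and Glrx2 (0.16) were lost, and that of Glrx5 was lost with effective length offsets (-0.27). Glrx2 also lost its call without vehicle replicate 1 (0.27), vehicle replicate 2 (0.26) or genipin replicate 1 (0.24).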

How the results depend on the processing

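Calls of the 46 genes over the 6 comparisons (276 values) stayed on the same side of the threshold in the same direction in 273 with RLE size factors, 269 with DESeq2, 271 with limma-voom, 267 without the filter, 239 without normalization factors and 251 with effective length offsets. A replicate block changed the call in 5 of 276 values and reversed none; numbers shared between groups gave no sign of pairing (correlations of -0.0751 to 0.0437 over 18 pairs, with 4 of 12 libraries closest to their own number). Of 1932 values that left out 1 library, 1827 kept their call. Leaving out 1 library gave 7 to 9 higher and 23 to 26 lower genes with genipin against vehicle, 10 to 16 and 11 to 13 in genipin+NAC against NAC, and 24 to 26 and 7 to 9 in the interaction. Counts changed by more than 1.5 times as follows. For NAC against vehicle, 17 genes were higher without normalization factors and 7 at adjusted p under 0.01, in place of 11. With effective length offsets 9 were lower in genipin+NAC against NAC, in place of 15, and 13 were lower in the interaction without normalization factors, in place of 7. Prdx6 with genipin reversed with effective length offsets (0.052) and Prdx3 with NAC without normalization factors (0.107), and the cause was not tested.

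A stricter rule, chosen after seeing the data, kept only calls (adjusted p under 0.05) whose estimated change was at least 1.5-fold. This is a cut on the estimate and not a test against 1.5-fold, and the rule called fewer genes by construction. Over all genes it called 2626 for genipin against vehicle, 2625 for NAC against vehicle, 2225 for genipin+NAC against vehicle, 3935 for genipin+NAC against genipin, 1931 for genipin+NAC against NAC and 2757 for the interaction. Of the 46 genes, in the same order, 1, 5, 4, 11, 5 and 14 were higher and 9, 5, 2, 5, 3 and 2 lower. Low counts limit Slc7a11, Nqo1, Gpx7 and Gstm5 most.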

Other observations

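Genes of the phagocyte NADPH oxidase, which forms superoxide from NADPH, moved separately. Ncf1 had 63.0, 60.8 and 58.4 CPM with vehicle, 60.0, 60.5 and 64.6 with genipin, 142, 143 and 137 with NAC, and 142, 141 and 138 with both, so that the NAC groups lay above the groups without NAC whether or not genipin was present (interaction -0.03 ± 0.05, not called). Cyba, the membrane subunit p22, fell with NAC (-0.50 ± 0.05) and rose with genipin in the presence of NAC (0.40 ± 0.05, with genipin+NAC replicate 1 at 197 CPM and the others at 241 and 239). Ncf4 rose with genipin both without NAC (0.21 ± 0.03) and with it (0.36 ± 0.04).

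Of 18 genes of selenocysteine incorporation and selenoproteins, 9 fell and 5 rose with genipin (31% and 29.9% of all genes tested), and 5 fell and 4 rose with NAC (30% and 29.6%). Selenop, a secreted selenium carrier, had 84.8, 81.5 and 84.1 CPM with vehicle, 66.5, 64.0 and 63.7 with genipin, 82.1, 86.3 and 83.7 with NAC, and 145, 137 and 136 with both, an interaction of 1.09 ± 0.05. Sephs2, which makes the selenium donor, rose with NAC (0.32 ± 0.04) and fell with genipin in the presence of NAC (-0.41 ± 0.04).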
